A study of Mus musculus with 8 samples.

Results

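The genes described here are 9 regulators of inflammatory mRNA: Zfp36, Zfp36l1, Zfp36l2, Zc3h12a, Zc3h12c, N4bp1, Rc3h1, Rc3h2 and Elavl1. They were found by matching these symbols, through their Ensembl IDs, to the 55414 gene IDs of a count table from sorted mouse Paneth cells, and all 9 were found. Paneth cells release antimicrobial peptides from the bottom of the small intestinal crypts. Wild-type mice received either PBS, the control, or TNF (tumor necrosis factor), an inflammatory cytokine, and 3 hours later the small intestine was taken and Paneth cells were purified on a cell sorter. There were 4 PBS and 4 TNF libraries, and the study describes its Paneth cell mice as C57BL/6J. No source used here gives the dose of TNF or the age of the mice.

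An inflammatory transcript is held in check after it is made. ZFP36 (tristetraprolin) and its relatives ZFP36L1 and ZFP36L2 are zinc finger proteins that bind AU-rich elements, runs of A and U in the 3′ untranslated region (UTR) of cytokine mRNAs, and bring in the CCR4-NOT complex, which removes the poly(A) tail. Regnase-1, the product of Zc3h12a, is an endoribonuclease that cuts stem-loops in such UTRs, N4BP1 is a related ribonuclease that restrains cytokine production, and the roquins (Rc3h1, Rc3h2) bind stem-loops and recruit deadenylases. ELAVL1 (HuR) also binds AU-rich elements but is known mainly for stabilizing the transcripts it binds. Transcripts of several of these regulators are themselves induced by inflammatory signals and are targets of the same machinery.

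The core of the AU-rich element bound by ZFP36 proteins was searched as TATTTAT, on the sense strand of the 3′ UTR of each gene's canonical transcript, with overlapping matches counted. It occurred at least once in 29.5% of the 3′ UTRs of 20783 coding genes. Among the decay factors, Zfp36 held 3 matches in 774 bases, a number reached by 1.29% of the 2163 UTRs of 0.8 to 1.2 times its length. Elavl1 held 9 matches in 7024 bases, a number reached by 0.376% of 532 UTRs of like length. Zfp36l1, Zfp36l2 and Zc3h12c held 3 each, reached by 4.42%, 5.29% and 19.0% of UTRs of like length. Rc3h2 held 4 (11.1%) and Rc3h1 2 (45.1%), whereas Zc3h12a and N4bp1 held none. A match is a description of the sequence and not a shown binding site. The windows of 30 bases with the most matches are shown for Zfp36 and Elavl1, as the members with the densest and the most numerous matches, and for Tnf, Cxcl1 and Ier3, known target transcripts that are described further on. Capitals mark TATTTAT, sequences run 5′ to 3′ and coordinates are GRCm39.
Zfp36 (chr7:28076379-28076408, minus strand): TATTTATgacgacttTATTTATtgtattaa
Elavl1 (chr8:4335776-4335805, minus strand): TATTTATTTATTTATTTATtttTATTTATt
Tnf (chr17:35418653-35418682, minus strand): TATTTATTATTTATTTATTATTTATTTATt
Cxcl1 (chr5:91040469-91040498, plus strand): TATTTATTTATgTATTTATTTATtccacaa
Ier3 (chr17:36133384-36133413, plus strand): TATTTATgTATTTATgtatatcctcctagg
The Zfp36 window held a pair of separated matches, whereas those of Elavl1 and Tnf held 5 overlapping or near matches each and that of Cxcl1 held 4.

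Libraries held between 23824717 and 32576077 counts and detected 16712 to 19135 genes. Paneth cell markers (13 genes, among them Lyz1 and Defa24) took 47.2% to 54.7% of the counts in PBS and 47.7% to 60.3% in TNF libraries, and all 13 were detected. Of 15 immune cell markers, 8 had no count in any library, among them Cd3e, Cd8a, Adgre1, S100a8, S100a9 and Tyrobp. The summed immune markers were 7.35 to 13.0 normalized CPM (CPM, with library sizes adjusted by TMM factors) in PBS and 10.8 to 68.7 in TNF. The upper end came from TNF replicate 4, in which Lyz2 alone held 64.3. Of all counts, immune markers took 0.000998% to 0.00139% in PBS and 0.00119% to 0.00308% in TNF. In normalized CPM the Paneth markers summed to 348060 to 521173 in PBS and 430975 to 1344511 in TNF. Lyz1 among them held 454156 in TNF replicate 4 and 139824 to 165440 in the other TNF libraries. Stromal markers summed to 0.260 to 0.452 in PBS and 1.23 to 1.70 in TNF. TNF replicate 4 also stood apart on the second principal component (15.8% of the variance) and had the lowest scaling factor, 0.448, against 0.995 to 1.36 elsewhere. In bulk RNA of sorted cells, fewer cells of a type and less RNA per cell cannot be told apart.

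TNF was followed by a rise of 3 decay factors by more than 3-fold (Zfp36, N4bp1 and Zc3h12a), a smaller rise of Elavl1 and a fall of Zfp36l1. Zfp36l2, Rc3h1 and Rc3h2 did not pass the test, and Zc3h12c was near the detection limit and was not tested. Genes were compared with the quasi-likelihood test of edgeR across 13368 genes, and a gene was called at an adjusted p under 0.05. Of the 8 tested members, 5 were called (62.5%), beside 43.0% of all tested genes. Of these, 4 were higher in TNF, where 23.4% of all genes were called, and 1 was lower, where 19.6% were called. For 5 members the values of the groups were fully apart, as was so for 42.1% of all genes. The median log2 fold change was 0.29 over the 8 members and 0.03 over all tested genes. With library size alone as the scaling, the median of all genes shifted by -0.40 and calls over all genes were 757 higher and 2425 lower, against 3122 and 2625 with TMM factors.

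**Figure D1:**
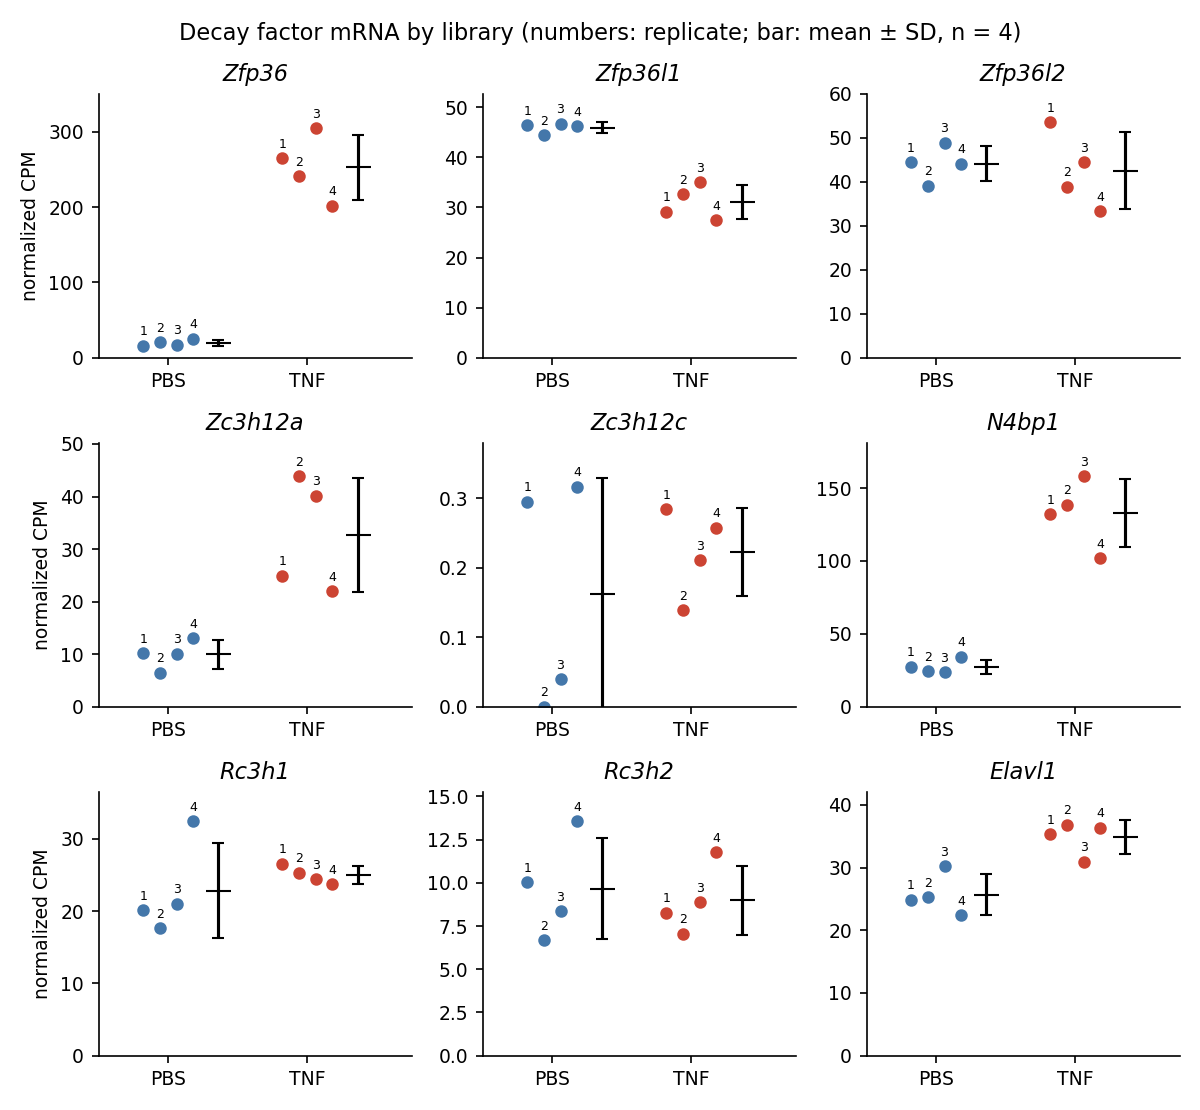
Each panel plots the normalized CPM (linear axis from 0) of a decay factor in the 4 PBS (blue) and 4 TNF (red) libraries. Numbers give the replicate and the black bar the mean and SD (n = 4). The TNF points of Zfp36 lie between 202 and 305, above PBS points that reach 25.0, whereas those of Zfp36l1 lie below the PBS points.

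Zfp36 (ENSMUSG00000044786, chromosome 7, 28076209 to 28079710, minus strand) encodes the founding member of its family. In PBS replicates 1 to 4 it measured 16.1, 20.3, 17.2 and 25.0 normalized CPM, and in TNF replicates 1 to 4 it measured 265, 241, 305 and 202. Each TNF library lay at least 8.09 times above each PBS library. The log2 fold change was 3.69 ± 0.19 (SE, n = 4 per group), a 12.9-fold rise with an adjusted p of 3.29e-07 by edgeR. By this change it ranked 132 of the 13368 genes. Under the alternatives tried it lay between 3.34 and 3.80, and the call held in every one.

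Zfp36l1 (ENSMUSG00000021127, chromosome 12) went the other way from its paralog. Its values were 46.4, 44.4, 46.7 and 46.2 normalized CPM in PBS and 29.2, 32.6, 35.1 and 27.5 in TNF. The PBS libraries were within a narrow range and all stood above the TNF libraries. The log2 fold change was -0.56 ± 0.11 (edgeR, adjusted p = 0.00175), a 1.48-fold fall. Under library size alone it was -0.93 and no longer called (adjusted p = 0.0565).

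Zfp36l2 (ENSMUSG00000045817, chromosome 17) held 44.5, 39.1, 48.8 and 44.1 normalized CPM in PBS, and 53.5, 38.8, 44.4 and 33.2 in TNF. The ranges overlapped, with both the highest and the lowest value among the TNF libraries. The log2 difference was -0.05 ± 0.15 (edgeR, adjusted p = 0.809), and it was 0.06 without TNF replicate 4, so no direction is given.

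Within the family the order of the transcripts was turned over. Counts per kilobase of canonical transcript were compared inside each library, which needs no scaling between libraries. Zfp36 made up 17.8%, 22.9%, 18.1% and 25.3% of the summed family in PBS and 80.1%, 80.7%, 82.6% and 80.4% in TNF. Its mean share went from 21.0% ± 3.66 to 81.0% ± 1.13 (SD, n = 4), a difference of 59.9 percentage points. The two-sided exact permutation test over 70 assignments gave p = 0.0286, the smallest this design allows, and 0.0857 after adjustment over the 3 shares tested. That adjusted value is above 0.05, although the groups lay far apart. Without TNF replicate 4 the difference was 60.1 points and the adjusted p, from the same exact permutation test, 0.0429. The adjusted value was lower only because the Rc3h1 share, described below, then also reached the smallest p. Zfp36l1 went from 43.5% to 8.84% and Zfp36l2 from 35.5% to 10.2% on average. The share of Zfp36l2 thus became smaller although its own level did not pass the test.

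**Figure D2:**
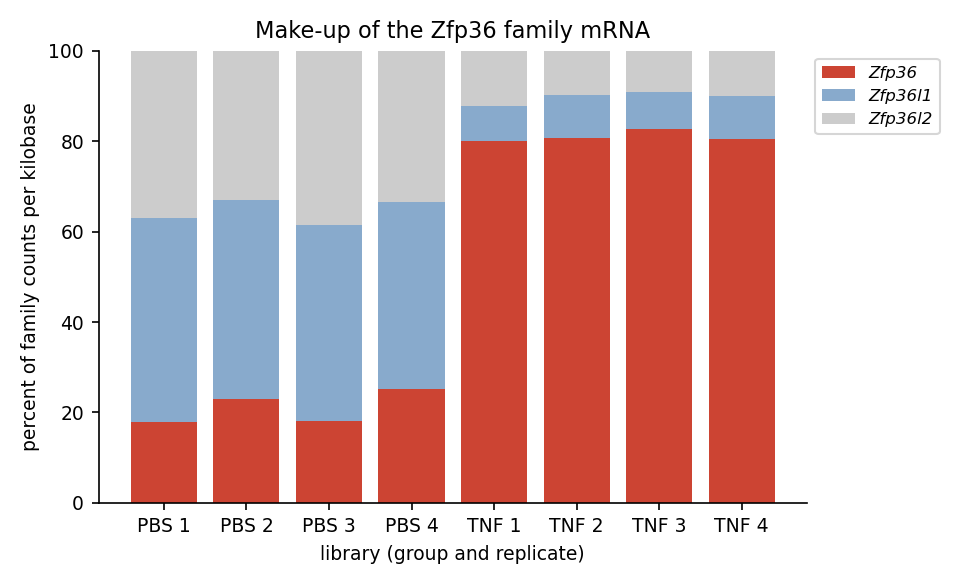
Stacked bars show, for each library, the percentage of the summed counts per kilobase of the Zfp36 family that came from Zfp36 (red), Zfp36l1 (blue) and Zfp36l2 (grey). Zfp36 took 17.8% to 25.3% in the PBS libraries and 80.1% to 82.6% in the TNF libraries.

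Of the ribonuclease genes, Zc3h12a and N4bp1 rose. Zc3h12a (ENSMUSG00000042677, chromosome 4, 125012216 to 125021711, minus strand) held 10.2, 6.47, 10.1 and 13.0 normalized CPM in PBS and 24.9, 43.8, 40.2 and 22.0 in TNF. The lowest TNF library was 1.69 times the highest PBS library, and TNF replicates 2 and 3 stood above replicates 1 and 4. The log2 fold change was 1.72 ± 0.26 (edgeR, adjusted p = 0.000397), a 3.29-fold rise, with a range of 1.37 to 1.88 over the alternatives, all of which kept the call.

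N4bp1 (ENSMUSG00000031652, chromosome 8, 87534788 to 87611954, minus strand) measured 27.4, 24.3, 23.5 and 34.2 normalized CPM in PBS and 132, 139, 158 and 102 in TNF. No TNF library came within 2.97 times of a PBS library. This gave a 4.84-fold rise, a log2 fold change of 2.28 ± 0.17 (edgeR, adjusted p = 3.72e-06), with a range of 1.92 to 2.40 under the alternatives and the call kept in all of them. As with Zfp36 and Zc3h12a, the lowest TNF value was that of TNF replicate 4, and the highest PBS value that of PBS replicate 4.

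Zc3h12c, which encodes another Regnase, was nearly silent. It had 11, 0, 1 and 14 counts in PBS and 8, 4, 6 and 3 in TNF, which left it below the filter on low counts. At these counts a difference was not detectable, and without the filter the log2 difference was 0.28 (edgeR, adjusted p = 0.819). Zc3h12a therefore made up 99.1% to 100% of the counts per kilobase of the pair in PBS and 99.6% to 99.9% in TNF (two-sided exact permutation test, p = 0.429).

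The roquin genes are read together, as the proteins overlap in function. Rc3h1 (ENSMUSG00000040423, chromosome 1) held 20.1, 17.7, 21.0 and 32.4 normalized CPM in PBS and 26.5, 25.3, 24.4 and 23.7 in TNF. All TNF values fell inside the PBS range, which PBS replicate 4 widened. The log2 difference was 0.13 ± 0.18 (edgeR, adjusted p = 0.577), with 0.32 without PBS replicate 4 (adjusted p = 0.0588) and -0.27 under library size alone.

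Rc3h2 (ENSMUSG00000075376, chromosome 2) held 10.05, 6.69, 8.35 and 13.6 normalized CPM in PBS and 8.27, 7.06, 8.88 and 11.8 in TNF. Replicate 4 was highest in both groups and the ranges overlapped. The log2 difference was -0.12 ± 0.23 (edgeR, adjusted p = 0.685), and 0.04 without PBS replicate 4. The share of Rc3h1 in the pair was 69.1% ± 2.61 in PBS and 72.5% ± 5.10 in TNF (SD, n = 4), a difference of 3.42 points with an adjusted p of 0.343 (exact permutation test). Without TNF replicate 4, whose share of 65.5% lay near that of PBS replicate 1 (65.3%), the difference was 5.76 points and the adjusted p 0.0429 by the same exact test.

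Elavl1 (ENSMUSG00000040028, chromosome 8, 4332576 to 4375489, minus strand), the stabilizing member, moved least among the called members. It held 24.9, 25.2, 30.2 and 22.4 normalized CPM in PBS and 35.3, 36.9, 30.9 and 36.3 in TNF. The groups did not overlap, but the lowest TNF library was only 1.02 times the highest PBS library. The log2 fold change was 0.44 ± 0.12 (edgeR, adjusted p = 0.0125), a 1.36-fold rise. This call was lost in 5 of 16 alternatives. They were library size alone (0.05, adjusted p = 0.915), no filter (0.39, adjusted p = 0.0603), and leaving out replicate 1 of PBS (0.39, adjusted p = 0.0667), or from TNF replicate 1 (0.40, adjusted p = 0.0514) or 2 (0.37, adjusted p = 0.0657). The 5′ end of Elavl1 lies opposite Ccl25, a chemokine gene of the small intestine, with up to 403 bases of shared exon on the other strand. Ccl25 itself did not pass the test (log2 difference -0.32 ± 0.21, edgeR, adjusted p = 0.242), but without PBS replicate 4 it was called lower (-0.49, adjusted p = 0.0488). Ccl25 measured 15.3 to 25.5 normalized CPM in PBS and 13.5 to 22.8 in TNF, less than Elavl1 in each library. No source used here says whether the counting used strand, so reads of the shared stretch cannot be assigned with certainty. The same holds for other members with an antisense lncRNA in the annotation. The longest such stretch is that of N4bp1 with Gm64829, up to 426 bases, and Rc3h2 shares up to 108 bases with Gm75747. Neither lncRNA is among the gene IDs of the count table, so what their reads add to N4bp1 and Rc3h2 is unknown. Zfp36 shares up to 125 bases with Gm44710 and Zfp36l2 up to 106 with Gm36279, which measured 1.36 to 2.58 and 1.80 to 3.02 normalized CPM over the 8 libraries, less than the member in each library. Zc3h12c shares up to 117 bases with Mir6244 and 44 with the lncRNA Gm67753.

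**Figure D3:**
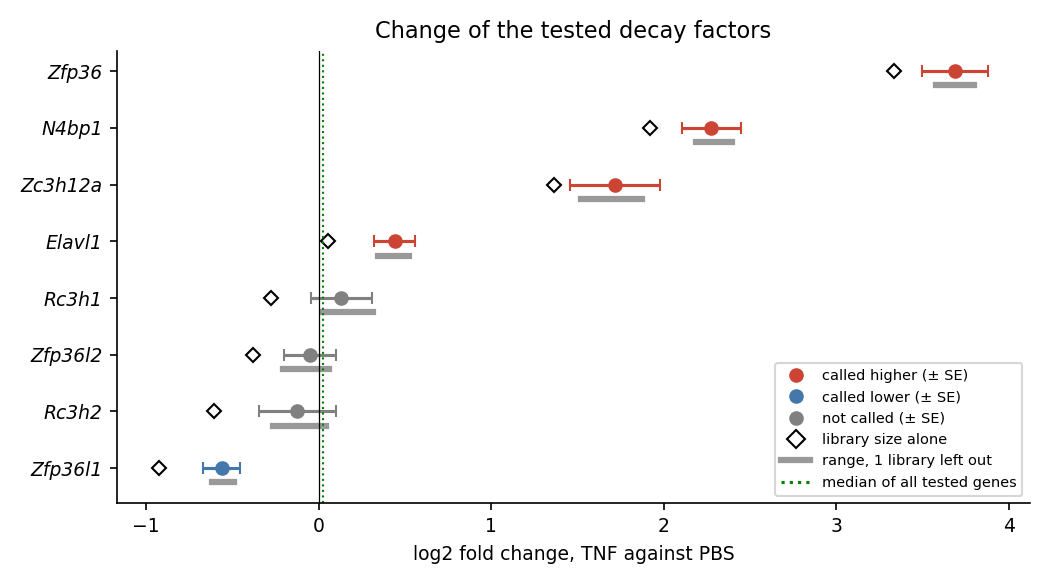
Log2 fold changes (TNF against PBS) of the 8 tested decay factors with their SE are plotted as circles, coloured by call. Diamonds show the fit scaled by library size alone, grey bars the range over fits with 1 library left out, and the dotted line the median of all tested genes (0.03). Zfp36, N4bp1 and Zc3h12a stay at or above 1.37 throughout, whereas Elavl1 comes to 0.05 under library size alone.

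Set per length, the decay factors changed places. In PBS the mean normalized CPM per kilobase of canonical transcript ran from Zfp36l1 (14.3) through Zfp36l2 (11.7) and Zfp36 (6.95) to N4bp1 (4.19), Zc3h12a (3.51), Elavl1 (2.98) and Rc3h1 (2.07), then Rc3h2 (0.933) and Zc3h12c (0.0186). In that order each of N4bp1, Zc3h12a, Elavl1 and Rc3h1 had a range over libraries that overlapped the next of them, and the other neighbours were apart. In TNF, Zfp36 led (89.7), followed by N4bp1 (20.3), Zc3h12a (11.6), Zfp36l2 (11.3) and Zfp36l1 (9.69), then Elavl1 (4.04), Rc3h1 (2.27), Rc3h2 (0.868) and Zc3h12c (0.0254). Here the ranges of Zc3h12a and Zfp36l2, and of Zfp36l2 and Zfp36l1, overlapped. Zfp36 thus went from the third place to the first.

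**Figure D4:**
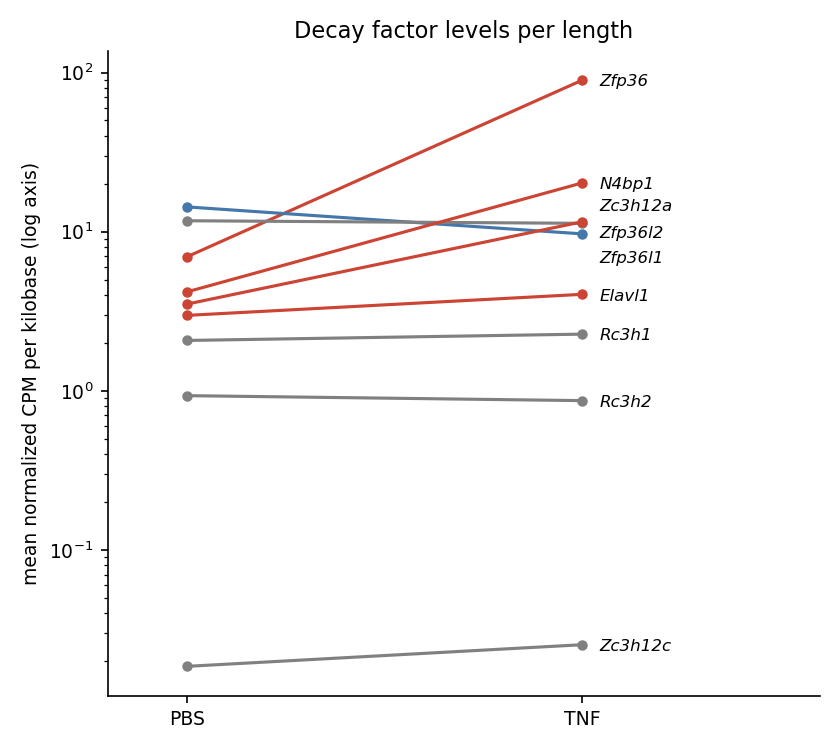
Mean normalized CPM per kilobase (log axis) of the 9 decay factors in PBS and TNF, with a line per gene coloured red where called higher, blue where called lower and grey where not called or not tested. Zfp36 rises from 6.95 to 89.7 and passes Zfp36l1 and Zfp36l2, and Zc3h12c stays near 0.02.

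PBS replicate 4 was the highest PBS library for Zfp36, Zc3h12a, N4bp1, Rc3h1 and Rc3h2. It was also the highest for Fos (31.0 normalized CPM against 9.53 to 16.2 in the other PBS libraries), Egr1 (38.3 against 13.2 to 17.4) and Jun (53.6 against 23.8 to 27.6), immediate early genes that respond to cell dissociation and were singled out after their values were seen. In the list of dissociation response genes the same held for Fosb, Junb, Ier2, Dusp1 and Nr4a1. Jund (70.7 against 94.2 in PBS replicate 3), Atf3, Hspa1a and Hspa1b were instead highest in PBS replicate 3. Over the whole list of 12 dissociation response genes the summed level was 182 to 282 in PBS and 605 to 843 in TNF, and 7 of the 11 tested were called higher and 2 (Fosb, Nr4a1) lower, beside 23.4% and 19.6% of all tested genes. The size of the Fosb fall rested on PBS replicate 4, at 5.47 normalized CPM against 0.536 to 0.855 in the other PBS libraries. Its log2 fold change was -2.98 (edgeR, adjusted p = 0.0159) with this library and -1.52 (adjusted p = 0.0193) without it, and limma-voom did not call it (adjusted p = 0.0600). The part of this list in the changes of the decay factors was not tested. Without PBS replicate 4, the log2 fold changes were 3.80 for Zfp36, 2.37 for N4bp1, 1.86 for Zc3h12a, -0.59 for Zfp36l1 and 0.34 for Elavl1, and the number called was 5. Without TNF replicate 4 it was also 5, with 3.80 for Zfp36, 2.40 for N4bp1, 1.88 for Zc3h12a, -0.49 for Zfp36l1 and 0.44 for Elavl1. Over all genes, the fits with 1 library left out gave 4756 to 6922 calls.

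For each tested member, the most similar gene was sought by the smallest root mean square distance between centred log2 CPM over the 8 libraries, among 8482 tested genes. It was Arid5a for Zfp36 (distance 0.141) and Ptprj, a receptor tyrosine phosphatase, for N4bp1 (0.109). Zc3h12a lay nearest to Itpkc, an inositol phosphate kinase (0.194), and Zfp36l1 to Ptov1 (0.0499). Elavl1 was nearest to Adsl, an enzyme of purine synthesis (0.0719), Zfp36l2 to Nudc (0.0866), Rc3h1 to Usp37 (0.0992) and Rc3h2 to Brd10 (0.0855). After Arid5a, the nearest to Zfp36 were Nfkbia (0.167) and Junb (0.188). Arid5a rose by 3.85 ± 0.20 on the log2 scale (edgeR, adjusted p = 3.19e-07). As it was picked for its closeness to Zfp36 in these libraries, its rise is not separate evidence.

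Arid5a, which encodes an RNA-binding protein known to oppose Regnase-1 on shared transcripts, belongs to a list of 22 other RNA binders and modifiers of the decay factors. Of the 18 tested, 8 were called higher and 2 lower (55.6%, beside 43.0% of all genes), with a median log2 fold change of 0.20. Under library size alone 2 were called higher and 3 lower. Arid5a held 5.12, 5.43, 5.75 and 7.01 normalized CPM in PBS and 78.4, 83.4, 112 and 62.0 in TNF. Mapkapk3, a kinase downstream of p38 that acts on ZFP36, held 18.0 to 19.4 in PBS and 72.4, 86.8, 82.5 and 84.8 in TNF, a log2 fold change of 2.11 ± 0.11 (edgeR, adjusted p = 3.19e-07). Both rose in every TNF library, and TNF replicate 4 was not the lowest for Mapkapk3. Ywhaz, an adaptor protein that binds phosphorylated proteins, rose from 86.2 to 99.9 in PBS to 161 to 238 in TNF (log2 fold change 1.09 ± 0.14, edgeR, adjusted p = 0.000126), but was not called under library size alone (0.74, adjusted p = 0.130).

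Further members of this list were singled out after their values were seen. Mapkapk2, the kinase known to phosphorylate ZFP36, had a log2 fold change of 1.03 ± 0.18 (edgeR, adjusted p = 0.000928), whereas Mapk14, which encodes the p38 alpha kinase above it, fell (-0.74 ± 0.10, adjusted p = 0.000183). Zc3h12d, a further Regnase relative, rose by 0.59 ± 0.15 and Hnrnpd (AUF1), another AU-rich element binder, by 0.84 ± 0.20. The rises of Mapkapk2, Zc3h12d and Hnrnpd were not called under library size alone. Khnyn, a relative of N4bp1, fell (-0.78 ± 0.18, adjusted p = 0.00473).

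The deadenylation and decapping list held 28 genes, all tested, that act after a decay factor has bound. Of these, 6 were called higher and 4 lower (35.7%, beside 43.0% of all genes), with a median log2 fold change of 0.14, and under library size alone all 4 calls were lower. Tob1, an adaptor that links RNA binders to CCR4-NOT, held 36.8, 44.2, 39.6 and 48.1 normalized CPM in PBS and 11.1, 9.62, 10.1 and 13.7 in TNF. This was a 3.82-fold fall in which all TNF libraries lay below all PBS libraries (log2 fold change -1.93 ± 0.14, edgeR, adjusted p = 3.10e-06). Cnot6l, a catalytic deadenylase subunit, held 40.5 to 43.6 in PBS and 22.7 to 28.4 in TNF (-0.73 ± 0.11, adjusted p = 0.000308). Btg1, of the same family of adaptors as Tob1, went the other way, from 66.5, 78.5, 68.5 and 89.3 to 135, 168, 167 and 120 (0.96 ± 0.15, adjusted p = 0.000535). It was not called under library size alone (0.61, adjusted p = 0.220).

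The other called genes of the list went both ways. Tob2 (-0.80 ± 0.13) and the deadenylase Parn (-0.54 ± 0.13) fell. The catalytic deadenylase subunits Cnot6 (0.41 ± 0.11) and Cnot7 (0.32 ± 0.10), the decapping genes Dcp2 (0.86 ± 0.18) and Patl1 (0.69 ± 0.14) and the decay helicase gene Upf1 (0.73 ± 0.22) rose, except under library size alone, where none of these rises was called. By edgeR the rises of Cnot7, Cnot6 and Upf1 also rested on single libraries or settings. The call of Cnot7 was lost on leaving out any library but PBS replicate 2 and TNF replicate 4 (0.25 to 0.33, adjusted p = 0.0503 to 0.163), and with no filter (adjusted p = 0.202). Cnot6 was not called without TNF replicate 1 or 2 (0.35 and 0.33, adjusted p = 0.0770 and 0.0908) or with no filter (adjusted p = 0.0839), and Upf1 not without PBS replicate 1, 2 or 3 (0.59 to 0.70, adjusted p = 0.0521 to 0.0597). The other decapping genes, Dcp1a, Dcp1b, Edc3, Edc4, Ddx6 and Lsm1, did not pass the test (log2 differences of 0.01 to 0.60). The large CCR4-NOT scaffold Cnot1 (log2 difference 0.04 ± 0.12) and the exonuclease Xrn1 (-0.05 ± 0.13) did not pass the test.

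**Figure D5:**
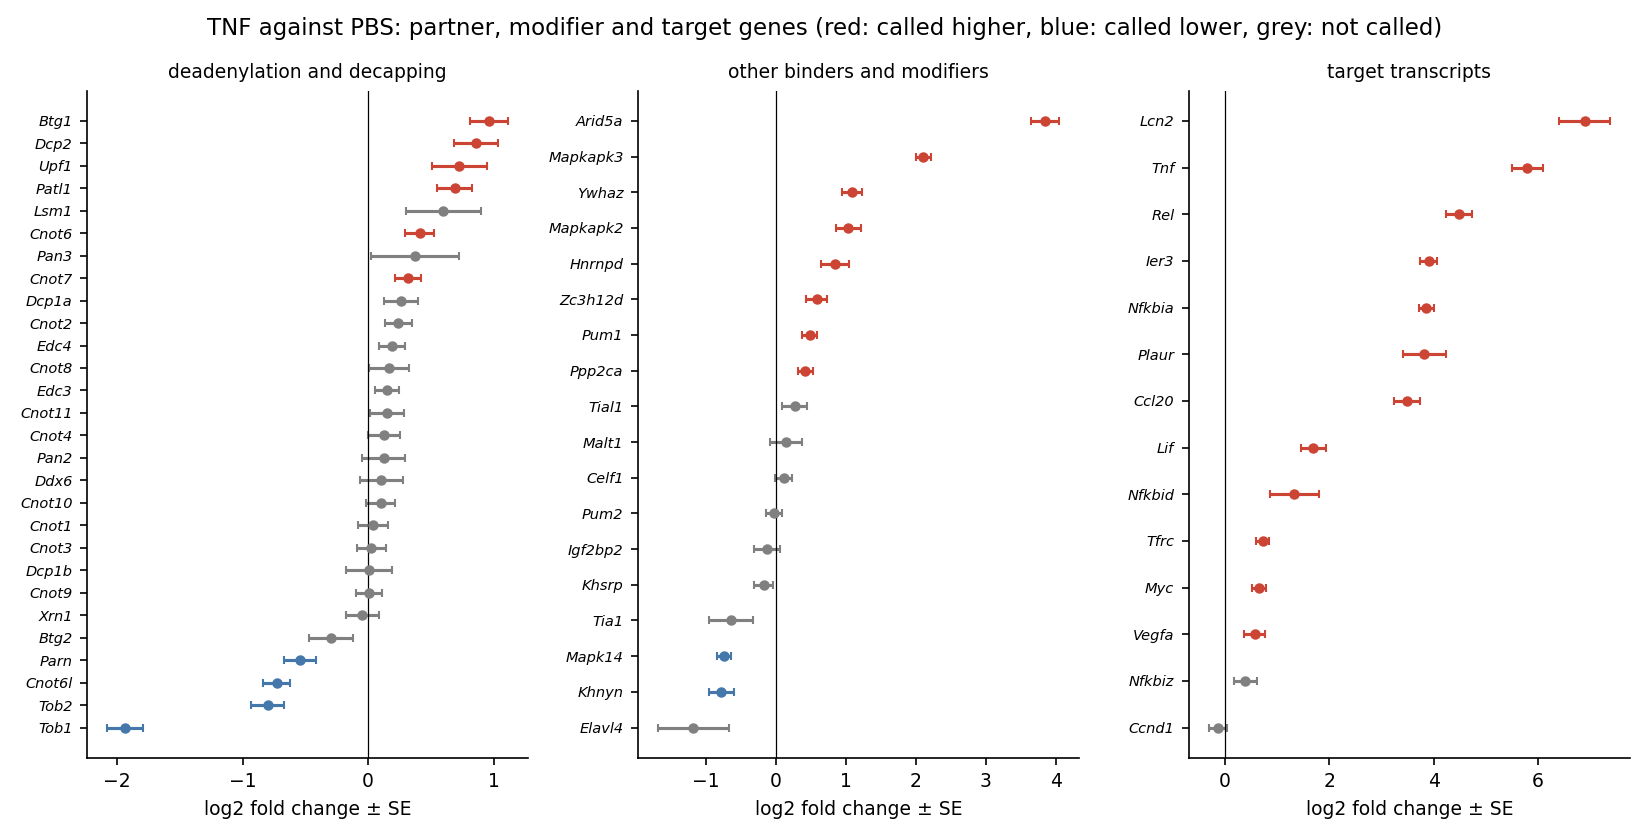
Log2 fold changes (TNF against PBS) with SE of the tested genes of the deadenylation and decapping list (28 genes), of the other binders and modifiers (18) and of the target transcripts, without Cxcl1, which had no count in PBS. Red points were called higher, blue lower and grey not called, and the horizontal scale differs between panels. Tob1 lies lowest in the first list at -1.93, and Arid5a highest in the second at 3.85.

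Transcripts known as targets of the decay factors were listed as 30 genes, of which 15 passed the filter on low counts and 7 (Il6, Il2, Il10, Il12b, Ccl2, Ptgs2 and Icos) had no count in any library. Of the 15 tested, 13 were called higher, beside 23.4% of all genes, and by edgeR none was called lower, with none lower at an unadjusted p under 0.05 and none by DESeq2 or limma-voom. Some, such as Cxcl1, passed the filter only through their TNF libraries, so the count over the tested genes is partly set by the filter and is given as a description. Without the filter, 14 of 23 were called higher, beside 13.0% of all 23246 genes. Many of these genes are NF-kB targets, whose rise in these libraries was known when the list was made, so their direction is not independent evidence. The median log2 fold change was 3.49 over the 15 tested, also with Cxcl1 set to its lower bound, and 1.79 over the 23 without the filter, beside 0.03 and -0.04 over all genes. Library size alone left 9 of them called.

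Nfkbia, the inhibitor of NF-kB, held 20.5, 23.1, 24.0 and 26.9 normalized CPM in PBS and 334, 369, 371 and 300 in TNF, a log2 fold change of 3.86 ± 0.15 (edgeR, adjusted p = 9.34e-08). Ier3, an early response gene whose AU-rich window is printed above, went from 1.02 to 1.29 in PBS to 14.6, 18.0, 18.9 and 19.7 in TNF (3.91 ± 0.16, adjusted p = 1.03e-07). Tnf itself was measured at 0.509, 0.112, 0.276 and 0.385 in PBS and 14.9, 21.6, 21.3 and 18.3 in TNF (5.80 ± 0.29, adjusted p = 3.19e-07). For all 3, each TNF library stood above each PBS library.

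Cxcl1, a chemokine mRNA with 6 matches to TATTTAT in 592 bases of 3′ UTR, had no count in the PBS libraries and 43, 84, 94 and 30 counts in TNF. With 3 counts taken as the limit for each PBS library, its TNF mean was at least 27.3-fold higher than the PBS mean. Cxcl2, with 7 matches, had no count in PBS and 10, 30, 34 and 5 in TNF. Its TNF mean was at least 7.98-fold higher than the PBS mean, but it did not pass the filter and was not tested. The leukocyte cytokine mRNAs Il6 and Il10 thus stayed without a count in libraries in which Tnf and Cxcl1 were counted.

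The target list was also read by the sequence shown at the start. Of the 30 listed genes, 22 had at least 1 match to TATTTAT in the 3′ UTR and 8 had none. Whether genes with and without a match differed was not tested.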

How the data were processed

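RNA of sorted Paneth cells from 4 PBS and 4 TNF samples was sequenced from TruSeq Stranded mRNA libraries. The authors deposited raw, unnormalized counts per Ensembl gene. The submitters' processing notes name the mm39 build, FastQC 0.12, STAR 2.7.10a and DESeq2. The study's methods describe STAR alignment to an index with GENCODE annotation and quantification by Salmon as TPM over all its data sets, but do not tie these steps to the deposited counts, which are whole numbers and whose notes name no Salmon. For these counts the counter, annotation, strand setting and treatment of reads shared between genes are therefore not given in the sources used here. The design text calls the libraries biological replicates, and no source says that equal replicate numbers mark a shared animal or day.

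Symbols, positions, canonical transcript lengths and 3′ UTRs came from GENCODE mouse release 39 (GRCm39), to which 54749 of the 55414 IDs were matched. Counts were tested with edgeR 4.0.16 in R 4.3.3 (quasi-likelihood F test, TMM, filterByExpr, no covariate), with Benjamini-Hochberg adjustment over all tested genes and a threshold of 0.05. SEs were derived from the F statistic. Shares within a gene family were compared by an exact permutation test (two-sided, 70 assignments). Where a gene had no count, 3 counts per library were taken as its limit, which covers counting error only. The 3 lists of partner, modifier and target genes, the 10 marker lists and the members were chosen with earlier results of these data known. Named genes were the members, in each list the 3 genes of smallest p, list genes with 0 counts in PBS and at least 3 in each TNF library, and the gene nearest in profile to each member (mean of at least 5 normalized CPM). Other genes named were chosen after their values were seen. No libraries of a group were duplicates (lowest chi-square per degree of freedom 8.77 over genes with at least 20 summed counts).

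Alternatives were RLE size factors, library size alone, TMM without the Defa genes, no filter, at least 1 CPM in 4 libraries, DESeq2 1.42.0, limma-voom (limma 3.58.1), a block on the replicate number, a threshold of 0.01, counts not divided by length, and leaving out each library. Dividing by the length of all exons was added after seeing the data. The procedure was tested on simulated data.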

Additional observations from a re-analysis of the deposited data

Results flagged for a closer look

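The 4 PBS and the 4 TNF values of 56 genes (the decay factors, genes of the lists, nearest profiles and overlapping neighbours), and of the 3 shares, were searched for a library far from the others of its group, judged against the group's own range. None of the groups of the 9 decay factors or of the shares held one. Of all 118 groups searched, 10 did, where chance gives about 1 in 20, and all 10 belonged to other genes.

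PBS replicate 4 was far above the other PBS libraries for Jun (53.6 normalized CPM), Egr1 (38.3) and Fosb (5.47), and far below them for Ptov1 (34.3). PBS replicate 2 was far below for Hnrnpd (19.9) and Ccl20 (0.483) and far above for Parn (15.4). TNF replicate 4 was far above the other TNF libraries for Lyz2 (64.3) and far below for Cnot1 (75.3), and TNF replicate 2 was far below for Fos (18.3).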

How the results depend on the processing

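Library size alone, without TMM factors, moved the counts of calls the most: 3182 over all genes, 3 decay factors, 4 deadenylation and decapping genes and 5 binders and modifiers, against 5747, 5, 10 and 10. The decay factors left were Zfp36, N4bp1 and Zc3h12a, and Rc3h1 (-0.27), Usp37 (-0.30), Cnot1 (-0.31) and Cnot7 (-0.078) changed sign. Over 44 tested genes that were named by the rule or given with a test result, the alternatives gave 700 values. Of these, 650 kept their direction and side of the threshold, 36 were no longer called, 1 became called (Ccl25) and 13 changed sign. Except for Cnot7, the sign changes were of genes not called in the first place: those above, and, with 1 library left out, Zfp36l2 (-0.20 to 0.062), Rc3h2 (-0.26 to 0.045), Nudc (-0.14 to 0.091, in 2 fits), Usp37 (-0.00093 to 0.19) Brd10 (-0.31 to 0.042), Cnot1 (-0.023 to 0.14, in 2 fits) and Xrn1 (-0.12 to 0.025). The cause was not tested.

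Leaving out 1 library gave 4756 to 6922 calls over all genes, 4 to 5 decay factors, 8 to 12 deadenylation and decapping genes, 9 to 11 binders and modifiers and 11 to 13 target transcripts. The difference in share lay between 58.9 and 61.4 points for Zfp36, 0.048 and 0.358 for Zc3h12a and 1.86 and 5.76 for Rc3h1. Without TNF replicate 4 the adjusted p of the Zfp36 and Rc3h1 shares was 0.0429 by the exact permutation test, since both then reached the smallest p. Dividing by the length of all exons gave 59.7, 0.277 and 2.26 points.

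No pairing by equal replicate numbers was seen: the deviations of such libraries from the group means correlated between -0.144 and 0.0663. With 4 libraries per group, these values cannot show that equal numbers mark no shared animal or day. With the replicate number as a block, 5087 genes and the same number of decay factors, 5, were called, with Elavl1 at an adjusted p of 0.0441 and Cnot7 at 0.0586 (edgeR). The sign-flip test over the 4 pairs cannot go below 0.125. At a threshold of 0.01, 3909 genes and 4 decay factors were called.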

Other observations

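Ratios between transcripts with opposed roles were computed after the values were seen and are given with no test. Arid5a over Zc3h12a, per kilobase, was 0.240 to 0.399 in the PBS libraries and 0.904 to 1.5 in the TNF libraries, so that the transcript of the antagonist came close to or passed that of Regnase-1. Zfp36 over Elavl1, per kilobase, was 1.74 to 3.40 in PBS and 17.0 to 30.1 in TNF. In both ratios the groups did not overlap, including TNF replicate 4 (1.34 and 17.0).

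The epithelial marker lists are given for comparison. Over all tested genes, 23.4% were called higher and 19.6% lower. Stem cell markers fell in 5 of 6 tested genes (median log2 fold change -1.16), cycling cell markers in 1 of 6 and enterocyte markers in 1 of 8. Goblet markers were called higher in 2 and lower in 2 of 7, enteroendocrine markers higher in 3 of 4 tested. Among the goblet markers called lower, Clca1 held 554 normalized CPM in PBS replicate 1. It held 41.1 to 44.0 in the other PBS libraries and 24.0 to 42.2 in TNF. The 3 tuft cell markers had log2 differences of -0.18 to 0.48, with adjusted p of at least 0.519 by edgeR. Of the Paneth markers, 2 of 13 were called higher, as were 1 of the 2 immune markers (Cd52) and the 1 stromal marker (Vim) that could be tested. Vim held 3 to 18 counts in PBS and 10 to 38 in TNF. It passed the filter on low counts through its TNF libraries, so its call is partly set by the filter. The part of the marker lists in the changes of the decay factors was not tested.

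Limits of depth were met by Zc3h12c, with at most 14 counts, and by the 15 target transcripts that did not pass the filter. The counts measure mRNA abundance at 1 time, 3 hours, and neither protein nor decay rate was measured.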
